A study of Rattus norvegicus with 2 samples.

Results

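The constitutive proteasome and the enzymes that attach and remove ubiquitin were followed in uncultured rat lung cells. Members were taken from the platform annotation by symbol, as genes of the Psma, Psmb, Psmc, Psmd, Psmf, Psmg, Ube2, Usp, Uba and Fbxo series. The inducible subunits Psmb8, Psmb9 and Psmb10, Ube2c and Usp18 were left out of the set. This gave 213 probes for 152 of the 15611 genes measured, namely 8 Psma, 8 Psmb, 6 Psmc, 13 Psmd, 1 Psmf, 3 Psmg, 5 Uba, 30 Ube2, 43 Usp and 35 Fbxo genes. All 152 were kept, because no filter on low values was applied. The name of the set holds for most members but not all. Psmc3ip is a recombination factor that binds an ATPase subunit, and Usp6nl is an activator of Rab GTPases without deubiquitinase function. The gene annotated as Fbxo23 is now the tetraspanin Tspan17, and Ube2cbp is now Ube3d, a ubiquitin ligase.

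Total RNA of untreated rat lung cells, never cultured, was labelled with Cy3 and hybridised on 2 two-colour Agilent arrays (lung replicates 1 and 2) against a control RNA, mix1, labelled with Cy5. Mix1 joins cultured bone marrow cells (BMC) with cultured primary fibroblasts of the ear (PEF), both from rat and both grown with serum. Neither the labels nor the design text gives strain, age or the number of animals, so p-values measure only the spread between these lung samples, which may be technical. Mix1 is 1 control RNA whose own spread does not enter the test, and lung carried the same dye on both arrays. Each value is a log2 ratio, read as lung over mix1. It is a difference between the RNAs and not a level, and it cannot rank genes by abundance. The direction is a likely reading, based on the aim of setting lung against mix1 and on 8 alveolar epithelial genes with ratios of 3.94 to 7.11. Every direction given here would turn with the sign. In such bulk RNA, fewer cells of a type and less RNA per cell cannot be told apart.

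Ubiquitin is a small protein that is activated by an E1 enzyme (Uba genes), passed to an E2 conjugating enzyme (Ube2 genes) and placed on a target by an E3 ligase. F-box proteins (Fbxo genes) are the parts of cullin ligases that hold the target. Deubiquitinases, of which the Usp genes form the largest family, take ubiquitin off again. Chains of ubiquitin send proteins to the 26S proteasome, a 20S barrel of alpha and beta rings that cuts the protein, capped by a 19S regulator that recognises, unfolds and feeds it. The system works in every cell, and in cells exposed to interferon the cutting subunits are exchanged for inducible ones.

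The set as a whole lay close to the typical gene of the array. In limma's moderated test, with p-values adjusted by Benjamini-Hochberg and a threshold of 0.05, lung was higher for 47 of 152 members and lower for 70, and 35 did not pass. Among all genes tested, 32.9% were higher and 49.7% lower, together 82.7%, against 77.0% of members called in either direction. The member median was -0.13, against -0.22 for all genes. Differences of at least 2-fold in both arrays were found for 18 members higher and 17 lower, together 23.0% of the set. The same size was reached by 16.5% of all genes upward and 15.8% downward, together 32.3%. The deposited values are not centred on the median gene. Subtracting each array's median raised the median gene by 0.21, after which 63 members were higher and 53 lower and the member median was 0.09, while 39.9% of all genes were higher and 37.9% lower. Of the 117 member calls as deposited, 80 were under 2-fold in the mean, against 7578 of the 12907 calls over all genes. Called or not, 75.7% of members lay within 2-fold in the mean, against 65.3% of all genes.

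Markers of the cells on each side of the comparison had larger ratios than most members. All 10 genes of the cultured fibroblast and matrix list were lower in lung (-7.92 to -1.61), as were 14 of 15 proliferation genes (-4.28 to -0.04, with Aurkb not passing). All 8 alveolar, 8 endothelial (2.27 to 6.23), 7 T cell (1.34 to 6.18), 5 neutrophil (2.03 to 7.65) and 5 red cell genes (2.30 to 4.58) were higher. Macrophage genes were divided, with 3 higher and 3 lower of 7. Their part in the member values was not tested.

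**Figure D1:**
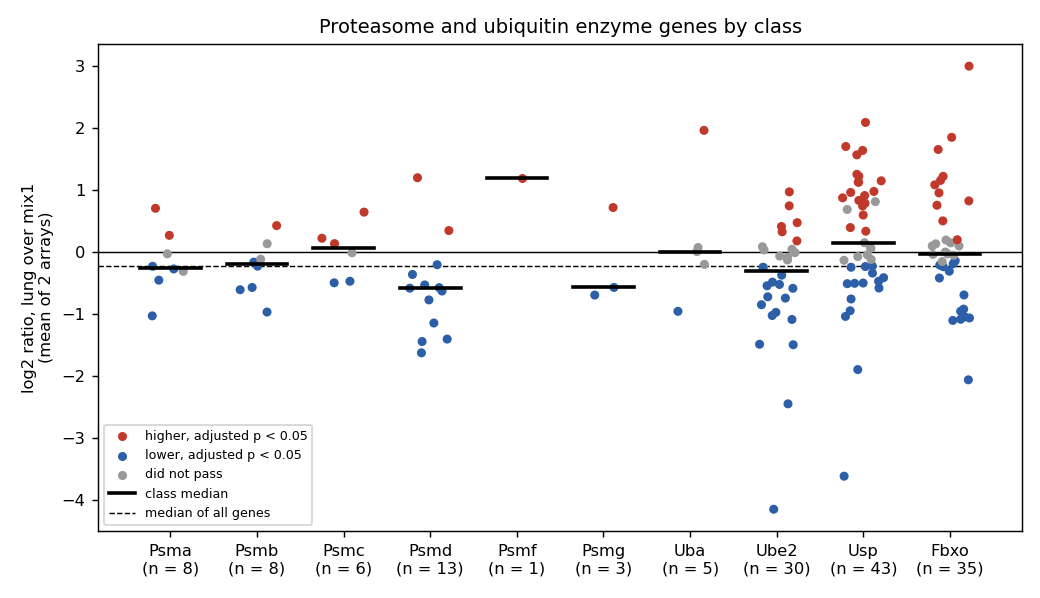
Log2 ratio of lung over mix1 (mean of 2 arrays, vertical axis) for every member gene, by class (horizontal axis, with the number of genes). Points are genes, coloured by limma's call, thick bars are class medians and the dashed line is the median of all genes (-0.22). The Psmd genes lie mostly below the dashed line. The Usp genes reach from -3.61 to 2.09, with 19 of 43 called higher (44.2%, against 32.9% of all genes).

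The 20S barrel sat at the median of the array. Of its 14 constitutive subunits, 3 were higher (21.4%, against 32.9% of all genes), 9 lower (64.3%, against 49.7%) and 2 did not pass. The median of -0.23 went to -0.02 when array medians were subtracted, and then 3 were higher and 5 lower. Of all genes, 39.9% were then higher and 37.9% lower. In the outer alpha ring, which forms the gate, Psma2 had log2 ratios of -1.058 and -1.001 in replicates 1 and 2, or 2.04-fold lower in lung (adjusted p 0.00202), and was the only 20S subunit past 2-fold in both arrays. Psma7 lay at -0.45 ± 0.0076 (SD, n = 2), Psma5 at -0.27 ± 0.02 and Psma4 at -0.23 ± 0.0037. The last 2 passed as lower as deposited and not after centring. Psma6 was higher at 0.71 and 0.70, on 2 probes that differed little, and Psma3 was higher at 0.27 ± 0.01. Psma1 did not pass (-0.07 and 0.01 in the arrays).

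The beta ring carries the cutting sites, and its 3 catalytic subunits had the lowest ratios of the ring. Psmb7, the subunit with trypsin-like activity, lay at -1.02 and -0.91 (1.96-fold lower, adjusted p 0.00305). The caspase-like subunit Psmb6 lay at -0.58 and -0.64, and the chymotrypsin-like subunit Psmb5 at -0.58 and -0.57. In all of these the arrays differed by far less than the distance from 0, and all 3 remained lower after centring. Among the structural beta subunits, Psmb3 (-0.23 ± 0.0072) and Psmb2 (-0.16 ± 0.02) were lower as deposited only, Psmb1 did not pass (-0.12 ± 0.03) and Psmb4 was higher (0.42 ± 0.04). The testis subunit Psma8 (-0.15 and -0.48) and the thymus subunit Psmb11 (0.09 and 0.18) did not pass as deposited. Psmb11 was called higher after centring.

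The inducible counterparts, which are no members, went the other way. Psmb8, which replaces Psmb5, lay at 1.50, 2.08 ± 0.0050 above it on the log2 scale within the arrays. Psmb9, which replaces Psmb6, lay at 2.51 and 3.11 ± 0.07 above it, and Psmb10, which replaces Psmb7, lay at 2.06 and 3.02 ± 0.09 above it. Each exchange pair therefore differed in ratio by between 4.21-fold and 8.66-fold. The proteasome activator subunits Psme1 and Psme2, which interferon also raises, were higher at 1.55 and 0.46. The nuclear activator Psme3 was lower at -1.22, and Psme4 did not pass (-0.07). All 8 interferon response markers were higher in lung (3.14 to 5.71), and their part in these values was not tested.

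Promoter stretches are shown for the subunits that hold TGACNNNGC, the core of the antioxidant response element. This element is bound by Nfe2l1 and Nfe2l2, and through it Nfe2l1 raises proteasome genes when the proteasome is blocked. RefSeq promoters (build GRCr8) were matched for 25 of the 29 constitutive 20S and 19S subunits, and the 250 bases before the start were searched on both strands. The element was found in 5. Each stretch is written 5′ to 3′ on the gene's strand, with the matching bases in capitals.
Psmb5: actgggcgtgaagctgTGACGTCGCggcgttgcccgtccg
Psmb6: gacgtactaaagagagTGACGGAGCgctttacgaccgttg
Psmb2: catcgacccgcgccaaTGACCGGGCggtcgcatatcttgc
Psma3: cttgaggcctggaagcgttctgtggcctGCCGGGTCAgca
Psmd1: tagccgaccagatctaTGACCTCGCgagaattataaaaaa
They lie at chr15:32047416-32047455 (minus strand) for Psmb5, chr10:55737848-55737887 for Psmb6, chr5:144254974-144255013 for Psmb2, chr6:95219709-95219748 for Psma3 and chr9:94157790-94157829 for Psmd1, the last 4 on the plus strand. The match in Psma3 is on the opposite strand.

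These letters occurred in 4 of 13 matched promoters of the 20S subunits (30.8%) and in 1 of 12 of the 19S subunits (8.33%). Among the enzymes they occurred in 7 of 27 matched Ube2 promoters (25.9%), 16.7% of Usp and 6.67% of Fbxo promoters. The letters stood in 17.4% of all matched members and in 10.2% of 27457 rat promoters of that length. The 5 subunits that hold them had ratios from -0.61 (Psmb6) to 0.27 (Psma3) with a median of -0.36, against a median of -0.25 over the 20 without, whose ratios ran from -1.44 to 0.70 and so enclosed the range of the 5. CCAAT, a box bound by NF-Y whose last base can be the first of TGACNNNGC, as in the Psmb2 stretch, stood in 9 of 13 promoters of 20S subunits (69.2%), 4 of 12 of 19S subunits (33.3%) and 34.3% of all promoters. A match is a run of letters and no shown site. Of the genes known to act on Nfe2l1, the DNA damage inducible protease Ddi2 was lower (-0.92 ± 0.03). The glycanase Ngly1 was higher (0.88 ± 0.16), on probes from 0.43 to 1.68. Nfe2l2 itself was higher at 1.16 ± 0.03, and its small Maf partners Mafg (-0.72 ± 0.01) and Maff (-0.78 ± 0.04) were lower. Nfe2l1 was not analysed here.

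The Psmc and Psmd genes, the 19S regulator class, were lower in most cases, and within the regulator the lid had the lowest median. The class also holds Psmc3ip and the assembly chaperones Psmd9, Psmd5 and Psmd10, which are not 19S subunits. Over the Psmc and Psmd genes together, 13 of 19 were lower and 5 higher, with a median of -0.50, where 49.7% of all genes were lower. After centring 11 were lower and 6 higher, with a median of -0.28, where 37.9% of all genes were lower. Within the base, the ATPases that unfold the target were divided, with a median of -0.01. Psmc4 (-0.50 ± 0.06) and Psmc3 (-0.47 ± 0.02) were lower, and Psmc5 (0.22 ± 0.0065) and Psmc2 (0.13 ± 0.02) were higher. Psmc6 did not pass as deposited (-0.01) and was called higher after centring. All 3 other base subunits were lower as deposited, namely the scaffold proteins Psmd2 (-0.53 ± 0.0046) and Psmd1 (-0.36 ± 0.02) and the ubiquitin receptor Psmd4 (-0.21 ± 0.0070). After centring only Psmd2 passed. Psmc3ip, which is no subunit, was higher at 0.64 ± 0.06.

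In the lid, 6 of 7 subunits were lower and 1 higher, with a median of -0.77, where 49.7% of all genes were lower. The same counts held after centring, where 37.9% of all genes were lower. Psmd13 had ratios of -1.44 in both arrays (2.72-fold lower, adjusted p 0.00134). Psmd3 lay at -1.41 and -1.39 (2.65-fold lower, adjusted p 0.00138). Psmd14, the metalloprotease that cuts ubiquitin off the substrate as it enters, lay at -1.17 and -1.12 (2.21-fold lower, adjusted p 0.00172). These 3 lid subunits were past 2-fold in both arrays. Psmd8 (-0.77 ± 0.0031), Psmd12 (-0.63 ± 0.0084) and Psmd7 (-0.57 ± 0.03) followed. Psmd6 departed from its neighbours in the complex, at 1.20 and 1.19 (2.29-fold higher, adjusted p 0.00151), 2.64 ± 0.0031 above Psmd13 on the log2 scale. Psmd6 and Psmd13 were each read by 1 probe. Psmc1 and Psmd11 were not analysed here.

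The chaperones that assemble the particle were divided. Psmd9, a chaperone of the base, had the lowest ratio of all proteasome genes, at -1.64 and -1.61 (3.08-fold lower, adjusted p 0.00132). Psmd5, which acts at the same step, lay at -0.58 ± 0.02, whereas Psmd10 (gankyrin) was higher at 0.34 ± 0.02. Of the chaperones of the alpha ring, Psmg2 (-0.69 ± 0.04) and its partner Psmg1 (-0.57 ± 0.01) were lower and Psmg4 (0.72 ± 0.03) was higher. Psmf1, known as the proteasome inhibitor PI31, was higher at 1.22 and 1.17 (2.29-fold, adjusted p 0.00169). Fbxo7, an F-box protein that binds PI31, was also higher, at 0.75 and 0.76. It was named after its values were seen. Of other genes for 26S assembly and receptors, which are no members, Adrm1 (0.61) and Sem1 (0.36) were higher and Akirin2 (-0.48) and Pomp (-0.17) lower. Uchl5 did not pass as deposited (-0.01). After centring Uchl5 was called higher and the call of Pomp ended.

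**Figure D2:**
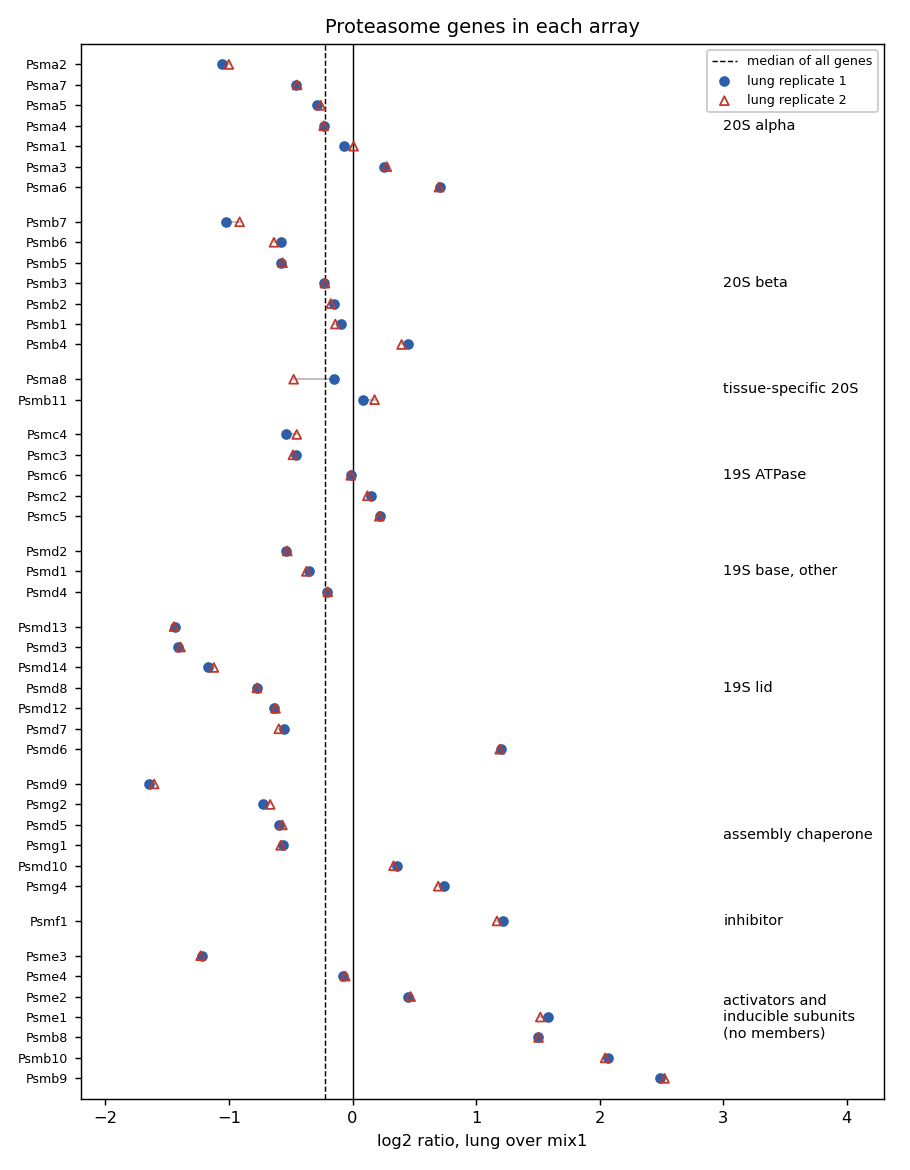
Log2 ratio of lung over mix1 (horizontal axis) for each proteasome gene in replicate 1 (filled circles) and replicate 2 (open triangles), grouped by place in the particle. The dashed line is the median of all genes. The arrays nearly coincide for most genes, 6 of 7 lid subunits lie below the dashed line with Psmd6 at 1.20, and the inducible subunits Psmb8, Psmb9 and Psmb10 lie between 1.50 and 2.51.

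Of the 5 activating enzymes, 1 was higher, 1 lower and 3 did not pass as deposited. After centring Uba2 and Uba3 also passed as higher, which made 3 higher and 1 lower. Uba1, the main E1 for ubiquitin, was lower at -0.97 and -0.94 (1.94-fold, adjusted p 0.00196), and its 2 probes lay at -1.26 and -0.65. Uba6, the second E1 for ubiquitin, did not pass (-0.31 and -0.09). Uba3, which activates the ubiquitin-like protein NEDD8, did not pass as deposited (0.06 and 0.08). Uba2, which activates SUMO, stood at 0.01 without passing as deposited, and its probes lay at -0.41 and 0.42. Uba7, the E1 for the interferon-induced modifier ISG15, was higher at 1.95 and 1.97 (3.89-fold, adjusted p 0.00118). The E2 that takes ISG15 from it, Ube2l6, did not pass (-0.05 and -0.08), which is 2.03 ± 0.04 below Uba7 on the log2 scale. Of the rest of that pathway, the ligase Herc6 (3.91 ± 0.19), Isg15 (3.22 ± 0.04) and the protease Usp18 (0.30 ± 0.04) were higher. Of the 5 measured ISG15 pathway genes, 4 were higher and none lower, against 32.9% higher among all genes. All 8 interferon response markers, of which Isg15 is itself 1, were higher, and their part in the value of Uba7 was not tested.

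Of 30 genes of the Ube2 class, the ligase Ube3d included, 16 were lower (53.3%, near the 49.7% of all genes). Another 6 were higher (20%, against 32.9% of all genes) and 8 did not pass. The median was -0.31, against -0.22 for all genes. After centring, 14 were lower and 9 higher, with a median of -0.10, where 37.9% of all genes were lower and 39.9% higher. No gene of the class was 2-fold higher in both arrays, against 16.5% of all genes. At that size 6 of the 30 were lower, where 15.8% of all genes were. Ube2t, the E2 of the Fanconi anaemia pathway for DNA crosslink repair, had the lowest ratio of all members, at -4.05 and -4.24 (17.7-fold lower, adjusted p 0.00123). Ube2q2l followed at -2.42 and -2.47 (5.45-fold lower). Proliferation markers, of which 14 of 15 were lower with a median of -2.41, moved in the direction of Ube2t, and their part in its value was not tested. Ube2s, which extends chains for the anaphase-promoting complex and was named after its values were seen, lay at -0.72 ± 0.03, on probes from -1.22 to -0.22.

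Of the 4 E2 enzymes of protein degradation at the endoplasmic reticulum, 3 were lower, where 49.7% of all genes were. The median over the group was -1.04. After centring 3 were lower and 1 higher, where 37.9% of all genes were lower and 39.9% higher. Ube2j1 lay at -1.51 and -1.48 (2.82-fold, adjusted p 0.00135), Ube2g2 at -1.57 and -1.41 (2.80-fold, adjusted p 0.00247) and Ube2j2 at -0.59 ± 0.02. Ube2g1 did not pass as deposited (0.04 ± 0.02) and was called higher after centring. The ligase Syvn1 of the same route was lower at -0.72, as was the ATPase Vcp that pulls targets out of the membrane (-0.83) and its cofactors Nploc4 (-1.42) and Faf2 (-1.81). Faf1, another Vcp cofactor, was higher at 0.49, and the shuttle Ubqln1 was lower at -0.88. In the list of shuttles and segregase genes, 7 of 9 were lower and 1 was higher, with a median of -0.70, against 49.7% lower among all genes. Ube2j2, Syvn1 and Vcp were named for this route after their values were seen.

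Ube2m, which charges cullins with NEDD8, was lower at -1.10 and -1.07 (2.12-fold, adjusted p 0.00172). The other NEDD8 E2, Ube2f, did not pass (-0.13 ± 0.03). Ube2l3, which serves ligases that carry ubiquitin on a cysteine, was lower at -1.03 and -1.01. Ube2d2, a general E2, was lower at -0.97 ± 0.05, while its relative Ube2d3 was higher at 0.18 ± 0.0054 on probes at -0.16 and 0.52. Ube3d was lower at -0.85 ± 0.21.

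The partners that make chains linked through lysine 63 were split. Ube2n, the catalytic E2, did not pass as deposited (0.08 ± 0.0092) and was called higher after centring. Its inactive partner Ube2v2 was the highest of the class, at 0.92 and 1.01 (1.96-fold, adjusted p 0.00264), while the other partner, Ube2v1, was lower at -0.76 and -0.72. They lay 1.71 ± 0.03 apart on the log2 scale, or 3.28-fold, and their probes did not overlap (0.77 and 1.17 against -0.93 to -0.49). Ube2f and Ube2v1 were named for their partners after the values were seen. Ube2k, which builds degradation chains, was higher at 0.75 and 0.74, although 1 of its 3 probes lay at -0.27 and the others at 1.15 and 1.35. Ube2e3 (0.47 ± 0.01), Ube2q1 (0.41 ± 0.02) and Ube2q2 (0.33 ± 0.03) completed the 6 that were higher. Ube2h, an E2 abundant in maturing red cells, did not pass as deposited (0.12 and -0.05) and was called higher after centring.

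Deubiquitinases of the Usp family spread widely to both sides. Of 43 genes, Usp6nl included, 19 rose in lung (44.2%, against 32.9% of all genes) and 15 fell (34.9%, against 49.7%). The other 9 did not pass, and the median was 0.15. At least 2-fold in both arrays, 9 were higher and 3 lower, where 16.5% of all genes were higher and 15.8% lower. After centring, 24 were higher and 11 lower, where 39.9% of all genes were higher and 37.9% lower. Usp had the highest median of the classes of 30 genes or more, but this order depends on the probes. With the lower of a gene's middle probes the Usp median was -0.07, below that of Fbxo (-0.03), and with the upper it was 0.40. Within each array, the Usp median exceeded the Ube2 median by 0.49 and 0.49 and the Fbxo median by 0.27 and 0.16. It exceeded the median of all Psma and Psmb genes by 0.39 and 0.35. Members are not replicates, so these differences carry no test, and the middle of the Usp genes alone, from the lower to the upper quartile, reached from -0.38 to 0.93.

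The lowest ratios of the class belonged to Usp5, which takes apart free ubiquitin chains, and its close relative Usp13. Usp13 lay at -3.42 and -3.80 (12.2-fold lower, adjusted p 0.00219) and Usp5 at -1.90 and -1.89 (3.72-fold lower, adjusted p 0.00118). Usp14, which trims chains on the 19S base, lay at -1.05 and -1.02, but its probes stood at -1.85 and -0.23. Usp22, the deubiquitinase of the SAGA histone acetylase complex, lay at -0.95 ± 0.01, the mitochondrial Usp30 at -0.76 ± 0.04, Usp2 at -0.58 ± 0.06, Usp9x at -0.51 ± 0.0066 and Usp10 at -0.51 ± 0.03. The probes of Usp9x ran from -1.02 to 0.02. Usp1, which acts on the same Fanconi substrate as Ube2t and was named for that, lay at -0.41 ± 0.02.

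At the other end, Usp54 had ratios of 2.22 and 1.96 (4.25-fold higher, adjusted p 0.00275). Usp25 lay at 1.67 and 1.73 (3.25-fold, adjusted p 0.00134), with all 3 probes above 0 (0.82, 1.37 and 2.90). Usp34, a regulator of Wnt signalling, lay at 1.56 and 1.71 on probes of 0.31 and 2.96. Usp4 lay at 1.57 and 1.56 (2.96-fold, adjusted p 0.00127). Usp48 (1.22 ± 0.02), Usp15 (1.15 ± 0.08), the endosomal Usp8 (1.13 ± 0.09) and Usp6nl (1.25 ± 0.04), which is no deubiquitinase, followed. The probes of Usp8 ran from 0.32 to 1.81.

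Close relatives did not always share a direction. Usp25 and its relative Usp28 (0.97 ± 0.20) were both higher. In the group of Usp4, Usp15 and Usp11, the first 2 were higher and Usp11 was lower at -0.47 ± 0.06. Usp33 was higher at 1.12 ± 0.0065 and its relative Usp20 lower at -0.25 ± 0.03, a call that ended after centring. Usp46 was higher at 0.83 ± 0.02 while Usp12 did not pass (-0.05 ± 0.05). The relatives in this paragraph were named after their values were seen. Of 17 deubiquitinases of other families, 10 were lower, 3 higher and 4 did not pass (6 lower and 5 higher after centring). Their median of -0.24 lay close to the -0.22 of all genes, of which 49.7% were lower. Uchl1, a ubiquitin hydrolase abundant in neurons, was lower at -4.95 ± 0.06, Josd2 at -1.56 and Otub1 at -1.33, while Otud1 was higher at 1.43.

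F-box proteins had a median near 0. Of 35 Fbxo genes, 11 rose (31.4%, near the 32.9% of all genes) and 14 fell (40%, against 49.7%). The other 10 did not pass. The median of -0.03 became 0.18 after centring, when 15 were higher and 9 lower. Of all genes, 39.9% were then higher and 37.9% lower. Fbxo36 had the highest ratio of all members, at 2.84 and 3.14 (7.96-fold higher, adjusted p 0.00208). Fbxo9 lay at 1.80 and 1.90 (3.60-fold) and Fbxo16 at 1.66 and 1.64 (3.14-fold). Fbxo39 (1.22 ± 0.05), Fbxo38 (1.15 ± 0.02), Fbxo3 (1.08 ± 0.05), Fbxo33 (0.95 in both arrays) and Fbxo8 (0.82 ± 0.05) were also higher.

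The lowest gene of the class was Tspan17 at -2.06 in both arrays (4.17-fold lower), which the annotation lists as an F-box gene. Fbxo30 lay at -1.12 and -1.09, Fbxo10 at -1.16 and -1.01, Fbxo44 at -1.18 and -0.94 and Fbxo42 at -1.10 and -0.99. Fbxo2, which binds sugar chains on misfolded glycoproteins, lay at -0.95 ± 0.03, Fbxo41 at -0.92 ± 0.03 and Fbxo46 at -0.69 ± 0.11. Fbxo6, a relative of Fbxo2, did not pass (-0.05 ± 0.03). Fbxo5, an inhibitor of the anaphase-promoting complex during the cell cycle, did not pass as deposited (-0.04 and 0.04), beside proliferation markers of which 14 of 15 were lower. After centring Fbxo5 was called higher.

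Fbxo32, the muscle atrophy ligase atrogin-1, was higher at 0.50 ± 0.01. The other classical atrophy ligase, Trim63, was higher at 4.37 ± 0.19, on probes at 2.94 and 5.80. Striated and cardiac muscle markers were higher for 6 of 8 genes (up to 4.43, Tnni3), with Myh1 and Myl1 lower at -8.06 and -1.57, and their part in these values was not tested. Fbxo32 and Trim63 stand in the list of other ubiquitin ligases, where 9 of 25 genes were higher and 9 lower. Of all genes, 32.9% were higher and 49.7% lower. After centring 13 of the list were higher and 6 lower, where 39.9% of all genes were higher and 37.9% lower. The highest of the list were Trim63, Nedd4l (1.93), which removes the epithelial sodium channel, and Wwp1 (1.79). The lowest were Trim32 (-1.29), Rnf4 (-1.03) and Nedd4 (-0.92).

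**Figure D3:**
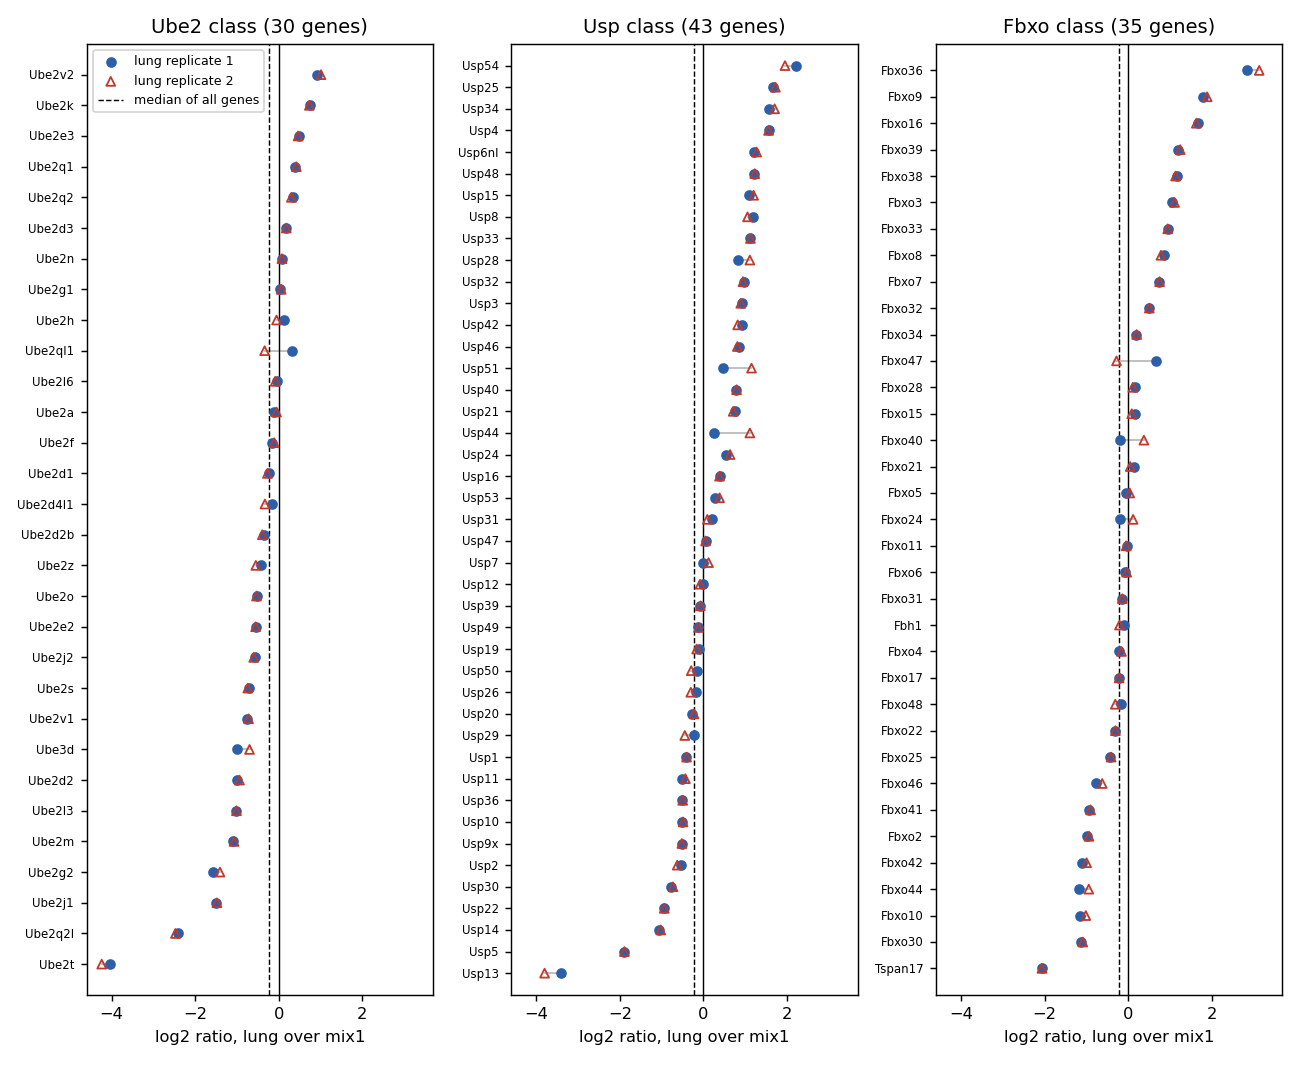
Log2 ratio of lung over mix1 (horizontal axes) for each Ube2, Usp and Fbxo gene in replicate 1 (filled circles) and replicate 2 (open triangles), ordered by mean. The dashed line is the median of all genes. Ube2t and Usp13 stand apart at the low end and Fbxo36 at the high end, and Usp44, Usp51, Ube2ql1, Fbxo40 and Fbxo47 show the widest gaps between arrays.

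F-box proteins join a scaffold of Skp1, Cul1 and Rbx1, in which Skp1 was higher (0.41) and Cul1 lower (-0.47). Rbx1 did not pass as deposited (0.01) and was called higher after centring. Of all 24 cullin ligase core genes, most of which serve other cullins or act on them, 16 fell and 5 rose, with a median of -0.43, where 49.7% of all genes were lower. After centring 12 were lower and 6 higher, against 37.9% of all genes lower. Cand2 (-2.60), Elob (-1.19) and the COP9 signalosome subunit Cops6 (-1.04) were the lowest, and Rnf7 (0.95), Skp1 and Cops3 (0.35) the highest. Of 22 F-box proteins outside the Fbxo series, 15 were lower and 5 higher, with a median of -0.45, and 12 were lower and 5 higher after centring, against the same shares of all genes. Skp2, the F-box protein that removes cell cycle inhibitors, lay at -1.67 and Fbxl20 at 2.09. In the SUMO list, 5 of 13 genes were higher and 5 lower, where 32.9% of all genes were higher and 49.7% lower. After centring 8 of the list were higher and 4 lower, where 39.9% of all genes were higher and 37.9% lower. Sae1 (-1.40), the partner of Uba2 in the E1, was the lowest and Pias1 (1.08) the highest. None of the 4 ubiquitin precursor genes was analysed here.

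Probes of the same gene differed by more than the arrays did in most members with several probes. Among the 46 members with several probes, the median distance between the lowest and the highest probe was 0.65 on the log2 scale, against a median SD between arrays of 0.03. Over all 3767 genes with several probes the distance was 0.72. In 13 of these members (28.3%, against 36.9% of all such genes) it exceeded 1, and 10 of the 13 were Usp genes. The probes lay on both sides of 0 in 16 members, but in none were they 2-fold or more from 0 in opposite directions. The adjusted p-values and the SDs given with ± hold only the spread between arrays and not that between probes. The ratios of the 13 members, Usp14, Usp8, Usp9x and Ube2k among them, are averages over probes more than 1 apart. The remaining 106 members had a single probe, and no such check was possible for them.

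**Figure D4:**
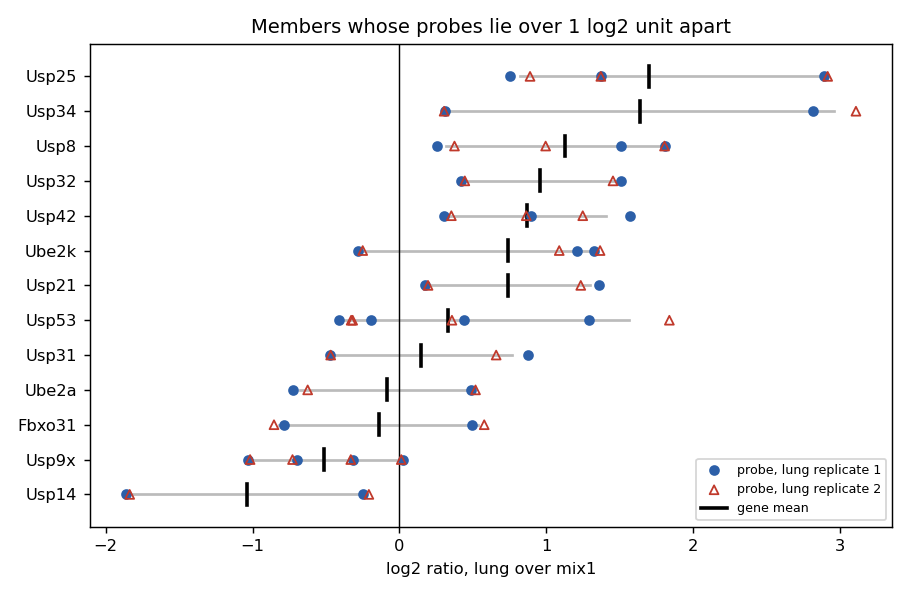
Log2 ratio of lung over mix1 (horizontal axis) of each probe in replicate 1 (filled circles) and replicate 2 (open triangles) for the 13 members whose probes lay over 1 log2 unit apart. Bars mark the gene mean. In Usp25 all 3 probes lie above 0, whereas those of Ube2a, Fbxo31 and Usp31 lie on both sides of it.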

How the data were processed

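The authors deposited 1 log2 ratio per probe and array for 40012 probes, made with Agilent Feature Extraction per the submitters' processing notes. No source used here gives its version, background correction, dye normalization, centring or log base. Base 2 was taken, since ratios of -11.74 to 9.09 in base 10 would lie outside what a scanner can read. RNA was isolated with TRIzol and purified on columns, per the labels' protocols. Probe brightness is not used here, so dim probes could not be set apart.

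The platform annotation names 20417 probes with 1 symbol each, and 19595 are unnamed here. Symbols were updated against the RefSeq gene table (GRCr8), which changed 4 member names. A gene now called Fbxo27 is listed under another symbol and is no member. Probes of a gene were averaged. The mean ratio of each gene was tested against 0, two-sided, by lmFit and eBayes of limma 3.58.1 (R 4.3.3), with Benjamini-Hochberg adjustment over 15611 genes and a threshold of 0.05. The fit had 1 residual and 1.28 prior degrees of freedom. The fit was tested on simulated data. Pearson's r between the arrays was 0.983 across genes, which are no replicates. The number of arrays, 2, limits the precision.

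The members and lists were chosen with earlier results of these data known. Named genes are all Psm and Uba genes, the 8 highest and 8 lowest called Ube2, Usp and Fbxo genes, the 5 nearest to 0, and in each list up to 3 called at either end. Others, named to complete a complex, pair or list, were chosen after their values were seen. Alternatives covered subtraction of array medians, scaling, robust eBayes, treat, an adjusted p under 0.01, the lower middle probe, single probes, symbols as given and each array left out. The upper middle probe was added after seeing the data.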

Additional observations from a re-analysis of the deposited data

How the results depend on the processing

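Scaling between arrays, robust eBayes and symbols as given moved no class count by more than 1.5 times and no class median by more than its SD between arrays. Below, the 20S core stands for all Psma and Psmb genes and the 19S regulator for all Psmc and Psmd genes. With array medians subtracted, 20S core genes called lower went from 9 to 5 and Fbxo genes called lower from 14 to 9. The medians became -0.016 for the 20S core, -0.28 for the 19S regulator, -0.10 for Ube2, 0.36 for Usp, 0.18 for Fbxo and 0.089 for all members, so those of Fbxo and of all members changed sign. Under treat, which asks for a change beyond 2-fold and so by construction calls fewer genes, the calls were 0 higher and 0 lower in the 20S core, 1 and 3 in the 19S regulator, 0 and 4 in Ube2, 6 and 2 in Usp, 4 and 1 in Fbxo, and 13 and 10 of all members. At an adjusted p under 0.01, 5 genes of the 20S core were lower and 3 of the 19S regulator higher. With the lower middle probe, the medians were -0.55 for the 19S regulator, -0.50 for Ube2, -0.075 for Usp, where the sign changed, and -0.22 for all members. With the upper middle probe they were -0.32 for the 19S regulator, 0.40 for Usp, 0.10 for Fbxo, where the sign changed, and -0.10 for all members. Over single probes they were 0.33 for Usp and -0.13 for all members. The Usp median minus the 20S median, 0.37, was 0.13, 0.62 and 0.52 in these 3 settings, and the Usp median minus the Ube2 median, 0.49, was 0.42, 0.69 and 0.61. The Fbxo median minus the Ube2 median, 0.27, was 0.43 with the lower middle probe. The lower and upper middle probes differ only in genes with an even number of probes.

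A single array has no residual spread, so leaving out an array gives values without a test. The medians then ranged from -0.229 to -0.190 for the 20S core, -0.535 to -0.482 for the 19S regulator, -0.365 to -0.290 for Ube2, -0.072 to -0.033 for Fbxo and -0.139 to -0.135 for all members. Genes past 2-fold numbered 1 to 2 lower in the 20S core, 0 to 1 higher in Ube2 and 3 to 5 lower in Fbxo. No paired analysis was possible because all samples belong to 1 group and the control is a common RNA. How background was handled is unknown here, so the large ratios of Ube2t and Usp13 may be bounds rather than measured folds.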

Other observations

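The arrays disagreed in sign for 8 of the 152 members, all of them small ratios that did not pass as deposited. These genes, chosen after their values were seen, were Psma1, Ube2ql1, Ube2h, Usp7, Fbxo5, Fbxo24, Fbxo40 and Fbxo47. The widest gap was that of Fbxo47, at 0.66 in replicate 1 and -0.28 in replicate 2, followed by Usp44 at 0.25 and 1.11, Usp51 at 0.47 and 1.15 and Ube2ql1 at 0.32 and -0.34. Fbxo40, an F-box gene of muscle, lay at -0.19 and 0.38. No other member differed by as much between the arrays as these 5 did.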
